A study of Homo sapiens with 12 samples.

Results

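The human HOX genes are 39 homeobox transcription factor genes in 4 clusters, HOXA on chromosome 7, HOXB on chromosome 17, HOXC on chromosome 12 and HOXD on chromosome 2. All 39 were found by matching the Ensembl identifiers of the count table to gene symbols, out of 61541 gene identifiers in all, and no measured value was used to choose them. HOXA held 11 genes, HOXB 10, HOXC 9 and HOXD 9. Each gene carries a paralog number from 1 (anterior, at the 3′ end of its cluster) to 13 (posterior, at the 5′ end).

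The RNA-seq libraries are labelled as A549, a human lung adenocarcinoma cell line. There were 4 groups of 3 libraries, all taken 14 days after transduction and none with a drug. The groups were A549 with a non-targeting guide (gNTC1) alone, the same in co-culture, A549 with Cas9 knockout of TYMS (thymidylate synthase) alone, and the same in co-culture. Per the series text, knockout cells were co-cultured with parental A549. The partner of the co-cultured control cells, whether partners were separated before RNA was taken, and whether the knockout was 1 clone are not given in the sources used here. The question behind the comparisons, as the series states it, is how expression differs between TYMS knockout cells and those whose growth was restored by co-culture.

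HOX proteins bind short AT-rich DNA sites and give cells a position along the body axis, and in embryos the 3′ genes of a cluster are active early and anteriorly and the 5′ genes late and posteriorly. They usually bind DNA together with TALE homeodomain partners of the PBX and MEIS families. Retinoic acid and CDX factors act on the clusters from above, Polycomb complexes keep them silent, and trithorax (MLL) complexes keep them active. The lung is known to express several HOXA and HOXB genes, HOXA5 among them.

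Library totals ran from 14921371 to 35723762 counts, so that 1 CPM (1 count per 1e6 counts, scaled by the TMM method) stood for 16.2 to 33.6 counts. TYMS was at 90.2 to 101 CPM in the 6 control-labelled libraries and at 10.7 to 21.3 CPM in the 6 knockout-labelled ones. A549 is known as a line that has lost both copies of the 9p21 genes CDKN2A, CDKN2B and MTAP. The libraries labelled control held 54.6 to 116 CPM of CDKN2A and 43.7 to 79.4 CPM of MTAP, against 0 to 0.119 CPM and 0.302 to 0.647 CPM in those labelled knockout. EPCAM, an epithelial surface protein, was at 94.3 to 119 against 0.149 to 0.912 CPM. The control labels thus go against a trait of the line, and in every difference below the knockout and a difference in the origin of the cells cannot be told apart. KRT8 and KRT18 were high in all 12 libraries, whereas the surfactant genes SFTPA1, SFTPA2, SFTPB and SFTPC stayed under 1 CPM in every group mean and NKX2-1, the lung lineage factor, at 0.0546 to 0.65 CPM. By the edgeR test described below, 1 of 6 epithelial markers was higher and 4 were lower in the lone knockout-labelled libraries (83.3% called, beside 56.6% of all genes tested). Of 8 lung and alveolar markers, 3 had enough counts to be tested and 1 was lower. Of 7 NRF2 target genes, known to be high in A549, 6 were higher and 0 lower (85.7% called). Libraries of a group spread along transcript GC content: the Spearman correlation of a library's deviation from its group mean with GC ran from -0.757 (co-cultured knockout replicate 3) to 0.736 (replicate 2 of that group), and from -0.619 to 0.587 in the other groups. Counts of HOX genes, over all clusters, that passed a test involving co-cultured knockout replicate 3 are given without it as well. Other counts, such as those by cluster, by gene list or of groups without overlap, are mostly given with it only. Median transcript GC content was 55.3% over HOX genes and 49.7% over all genes tested.

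At a group mean of 1 CPM or more, 25 of the 39 HOX genes were expressed in the lone control-labelled group, 26 in the co-cultured control-labelled group, and 22 in each of the 2 knockout-labelled groups. Reaching 1 CPM in at least 1 group were 28 genes, and 11 stayed below it everywhere. Of the 39, 33 had enough counts to be tested, and the 6 others (HOXB1, HOXC12, HOXD1, HOXD3, HOXD12 and HOXD13) did not exceed a group mean of 0.482 CPM. In HOXB the lowest paralog expressed was 2 or 3 and the highest 13, in HOXC they were 4 and 13, and in HOXD only HOXD8 was expressed. Genes between these ends could fall short: HOXB4 in both knockout-labelled groups, HOXC5 and HOXC12 in all 4 groups and HOXC11 in 3 of 4.

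HOXB carried most of the summed HOX counts. Its genes summed to 177, 209 and 212 CPM in the lone control-labelled libraries, to 196, 194 and 203 in the co-cultured ones, to 110.0, 116 and 132 in the lone knockout-labelled libraries and to 138, 139.6 and 127 in the co-cultured ones. All control-labelled libraries lay above all knockout-labelled ones. HOXA summed to 73.5 ± 4.97 CPM (SD, n = 3) in the lone control-labelled group and to 57.4 ± 7.69 in the lone knockout-labelled group. HOXC summed to 33.3 ± 3.56 and 30.9 ± 0.539 CPM in the control-labelled groups, and to 39.8 ± 3.57 (alone) and 54.1 ± 3.11 (co-cultured) in the knockout-labelled groups. For HOXC and HOXD, the co-cultured knockout-labelled libraries all lay above the other 9. HOXD summed to between 6.57 and 11.7 CPM by group. These sums were not tested.

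**Figure D1:**
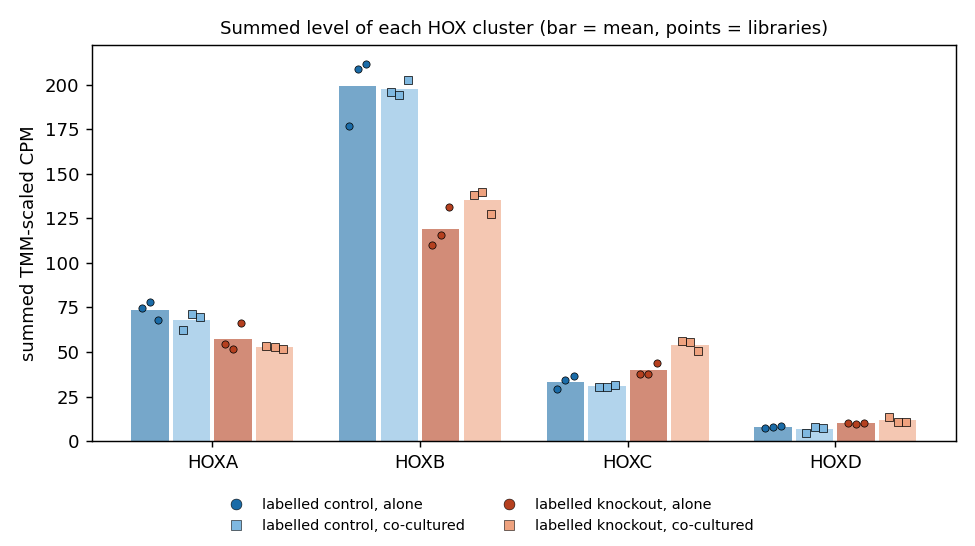
Summed TMM-scaled CPM (vertical axis, from 0) of the genes of each HOX cluster (horizontal axis) in 4 groups; bars are means of 3 libraries and points are libraries. HOXB makes up over 50% of the HOX counts in each group (63.4% in the lone control-labelled group, 52.6% in the lone knockout-labelled group), and HOXC and HOXD are highest in the co-cultured knockout-labelled group.

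Per kilobase of annotated exon, the leading gene of HOXB was HOXB7 in all 4 groups, with a mean level of 39.8 and 39.5 CPM per kb in the control-labelled groups and 17.8 and 22.7 in the knockout-labelled ones. In HOXA the leading gene was HOXA9 in the control-labelled groups (5.65 CPM per kb alone) and HOXA3 in the knockout-labelled groups (8.04 CPM per kb alone). In the lone control-labelled group HOXA10 (5.26 CPM per kb) and HOXA7 (4.47) came next. Exon bases that overlap other genes were 27.0% for HOXA9, 26.3% for HOXA10, 62.5% for HOXA7, 47.3% for HOXA4, 40.1% for HOXA6 and 31.1% for HOXA11. How reads there were assigned is not given in the sources used here. HOXC9 led its cluster in 3 groups (6.22 CPM per kb in the lone control-labelled group), and HOXC13 led in the co-cultured knockout-labelled group (7.61 CPM per kb). HOXD8 led HOXD in each group, at 1.99 to 3.13 CPM per kb.

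**Figure D2:**
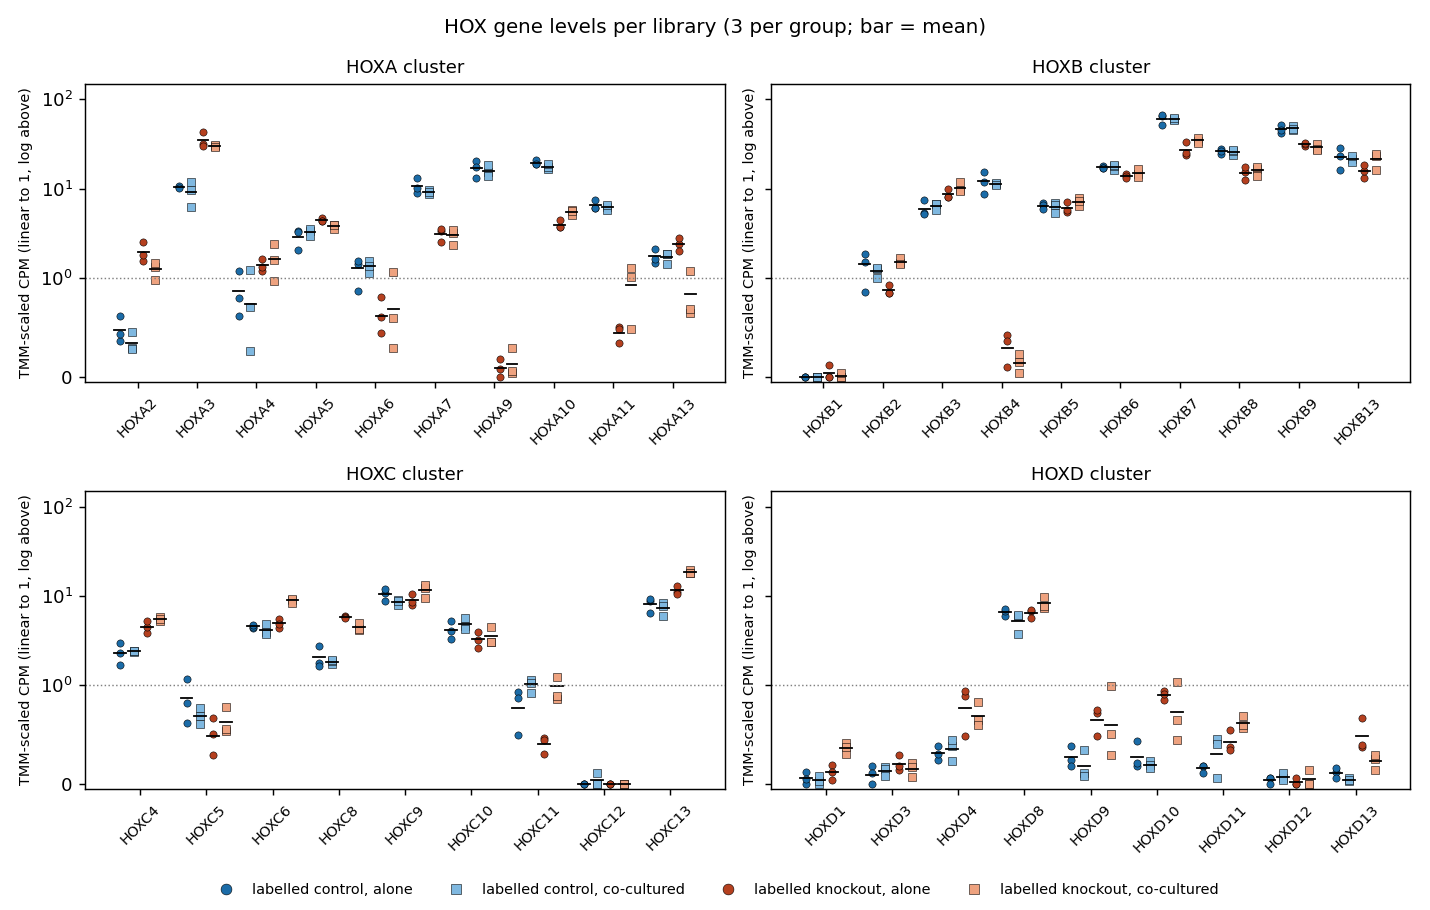
TMM-scaled CPM (vertical axis, linear up to 1 and logarithmic above) of HOX genes in every library, by cluster and in paralog order along the horizontal axis; bars are group means and the dotted line marks 1 CPM. HOXA9 and HOXB4 fall from at least 8.73 CPM in each control-labelled library to at most 0.423 CPM in each knockout-labelled one, while HOXA2 and HOXA3 lie higher in the knockout-labelled libraries.

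Between lone knockout-labelled and lone control-labelled libraries, 19 of the 33 tested HOX genes passed the test (edgeR quasi-likelihood, Benjamini-Hochberg adjusted p under 0.05 over 16768 genes), 10 higher (28% of all genes tested were) and 9 lower (28.6%) in the knockout-labelled group. That share, 57.6%, stood beside 56.6% of all genes tested. Groups did not overlap for 23 of the 33 genes, beside 65.2% of all genes tested. Their median absolute log2 fold change was 0.89, beside 0.79 over all genes tested. Co-cultured, 22 of 33 passed (66.7%, beside 49.4% of all genes tested), 13 higher (24.1%) and 9 lower (25.3%), and the groups of 23 genes did not overlap (beside 55.4%). Without co-cultured knockout replicate 3, 22 passed, of which 21 were among the first 22. The 2 comparisons have no library in common. Fold changes over all genes tested fell with transcript GC content (Spearman correlation -0.386 alone and -0.106 co-cultured). With library trends on GC content removed, 20 HOX genes passed alone, 17 of them among the first 19. Co-cultured, 24 then passed, 22 of them the first 22.

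HOXA2 to HOXA13 lie between 27100354 and 27200106 on chromosome 7 (GRCh38), on the minus strand. Along this stretch, HOXA2 and HOXA3 were higher in the knockout-labelled libraries and genes from HOXA7 to HOXA11 were lower. In the lone comparison HOXA2, HOXA3 and HOXA5 rose, HOXA7, HOXA9, HOXA10 and HOXA11 fell, and HOXA4, HOXA6 and HOXA13 did not pass the test. Upstream sequence of HOXA2, HOXA7, HOXA9, HOXA10 and HOXA11 is printed from the RefSeq promoter table (GRCh38.p14), which held 27 windows for 20 of the 39 HOX genes. Only bases before a RefSeq start and outside annotated untranslated regions are shown, 5′ to 3′. The HOXA7, HOXA9 and HOXA10 stretches lie inside their GENCODE genes, whose 5′ ends are at 27157936, 27175180 and 27180261. They thus precede starts within these genes, and other HOXA10 sequence in the table is not printed. HOXA2 was chosen as a gene that rose and the others printed as genes that fell. HOXA3, which also rose and lies nearer the change of direction, is in the promoter table but is not printed. Capitals mark matches on either strand to any of 4 motifs, TGATTNAT (a HOX-PBX site), TTTATNG (a CDX-type site), TAATNA (a homeodomain core) and TATAAA (the core promoter box).
HOXA2 (chr7:27102812-27102933, minus strand): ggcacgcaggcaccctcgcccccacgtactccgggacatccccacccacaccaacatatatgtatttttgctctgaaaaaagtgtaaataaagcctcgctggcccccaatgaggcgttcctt
HOXA7 (chr7:27156755-27156925, minus strand): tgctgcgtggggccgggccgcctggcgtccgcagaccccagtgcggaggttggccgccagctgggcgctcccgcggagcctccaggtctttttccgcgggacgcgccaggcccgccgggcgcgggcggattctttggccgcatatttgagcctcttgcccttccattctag
HOXA9 (chr7:27165538-27165787, minus strand): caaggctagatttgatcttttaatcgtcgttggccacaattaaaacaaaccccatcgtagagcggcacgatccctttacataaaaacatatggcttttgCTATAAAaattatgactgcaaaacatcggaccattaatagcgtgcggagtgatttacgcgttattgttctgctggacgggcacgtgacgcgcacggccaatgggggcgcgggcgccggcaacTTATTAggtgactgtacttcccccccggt
HOXA10 (chr7:27174321-27174570, minus strand): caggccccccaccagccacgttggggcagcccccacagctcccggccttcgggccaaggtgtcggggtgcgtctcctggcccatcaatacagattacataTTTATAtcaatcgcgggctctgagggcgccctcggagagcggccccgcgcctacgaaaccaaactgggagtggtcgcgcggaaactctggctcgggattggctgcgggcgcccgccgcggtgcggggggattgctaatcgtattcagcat
HOXA11 (chr7:27185233-27185482, minus strand): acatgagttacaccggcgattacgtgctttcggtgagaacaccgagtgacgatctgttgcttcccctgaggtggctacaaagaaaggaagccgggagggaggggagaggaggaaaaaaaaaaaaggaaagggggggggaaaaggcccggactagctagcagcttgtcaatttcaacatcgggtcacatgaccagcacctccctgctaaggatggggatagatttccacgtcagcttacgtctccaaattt

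In the HOXA9 window a match to TTTATNG on the opposite strand overlaps a match to TATAAA, and a separate match to TAATNA lies on the opposite strand nearer the start. The HOXA10 window holds TATAAA on the opposite strand, and the HOXA2, HOXA7 and HOXA11 stretches as printed hold none of the 4 motifs. The whole 250-base HOXA2 window, of which 122 bases are printed, does hold TGATTNAT and TAATNA. Over the 250 bases before the start, TTTATNG was found in 7 of the 27 HOX windows (25.9%) and in 8.93% of 35116 windows of all genes. These windows belonged to HOXA3 and HOXC4, which were higher in the knockout-labelled libraries, and to HOXA9 and HOXA10, which were lower. HOXC5 and HOXD8 held it too, and the HOXA10 match lies in a window that is not printed. TAATNA was found in 7 of 27 (25.9%, beside 21.8%), TATAAA in 5 (18.5%, beside 10.7%) and TGATTNAT in 2 (7.41%, beside 2.48%). Genes with TATAAA were HOXA3, HOXA9, HOXA10 and HOXD13. The printed stretches held 6 CG dinucleotides in 122 bases for HOXA2, 20 in 171 for HOXA7, and 20, 24 and 11 in 250 for HOXA9, HOXA10 and HOXA11. A match describes the letters only.

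HOXA2, which patterns the second pharyngeal arch, was at 0.619, 0.369 and 0.437 CPM in lone control-labelled libraries and at 2.54, 1.54 and 1.82 in lone knockout-labelled ones. Co-cultured, its values were 0.297, 0.459 and 0.285 CPM against 1.34, 0.983 and 1.45 CPM. It crossed 1 CPM only in the knockout-labelled group means, and the groups did not overlap in either comparison (log2 fold change 2.05 ± 0.34, adjusted p = 0.000207 alone; log2 fold change 1.81 ± 0.34, adjusted p = 0.000648 co-cultured).

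HOXA3, needed for the thymus and parathyroid, was the gene of this cluster with the most counts in the knockout-labelled libraries. Its values were 10.5, 10.8 and 10.2 CPM in lone control-labelled libraries and 31.5, 29.7 and 42.7 in lone knockout-labelled ones. In co-culture they were 6.17, 9.63 and 11.7 CPM and 30.4, 30.6 and 29.4 CPM. The lowest knockout-labelled library was still more than the highest control-labelled one (log2 fold change 1.72 ± 0.22, adjusted p = 2.57e-05 alone; log2 fold change 1.71 ± 0.22, adjusted p = 2.92e-05 co-cultured). Of the HOXA3 exon bases, 17.9% overlap other genes, among them antisense HOXA-AS2 and HOXA-AS3.

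HOXA4 was at 0.619, 0.80 and 1.2 CPM and 0.712, 0.268 and 1.22 CPM in the lone and co-cultured control-labelled libraries. In the knockout-labelled ones it was at 1.18, 1.64 and 1.34 and 1.59, 2.38 and 0.969 CPM. The lone groups overlapped and did not pass the test, and the co-cultured groups overlapped and passed narrowly (log2 fold change 1.18 ± 0.46, adjusted p = 0.0499). That call was lost, at adjusted p = 0.0908 to 0.205, when replicate 1 or 2 of either co-cultured group was left out. HOXA5, a gene of airway and lung development, had 3.34, 3.26 and 2.07 CPM in the lone control-labelled libraries and 4.65, 4.38 and 4.38 CPM in the lone knockout-labelled ones. These groups did not overlap (log2 fold change 0.63 ± 0.23, adjusted p = 0.0302), but the call was lost, at adjusted p = 0.0622 to 0.15, without control alone replicate 3 or without any 1 of the lone knockout replicates. The co-cultured means of HOXA5 were 3.26 ± 0.298 and 3.8 ± 0.246 CPM and did not pass the test.

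HOXA6 lay at the change of direction and was low in all groups. It had 1.42, 1.54 and 0.874 CPM in lone control-labelled and 0.803, 0.448 and 0.608 CPM in lone knockout-labelled libraries, and 1.13, 1.57 and 1.34 CPM against 1.16, 0.298 and 0.596 CPM in co-culture. The lone groups did not overlap and the co-cultured groups did, and neither difference passed the test (adjusted p = 0.0677 and 0.0571). HOXA7, a trunk-level gene, had 8.85, 13.2 and 10.3 CPM in lone control-labelled libraries and 2.54, 3.33 and 3.53 in lone knockout-labelled ones. In co-culture its values were 8.66, 9.67 and 9.16 CPM and 3.19, 3.49 and 2.35 CPM. The knockout-labelled libraries were all below the control-labelled ones (log2 fold change -1.78 ± 0.24, adjusted p = 3.8e-05 alone; log2 fold change -1.60 ± 0.23, adjusted p = 8.84e-05 co-cultured).

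HOXA9, known as a driver of acute leukaemia with MLL fusions, was the HOX gene that differed most. It had 20.6, 17.6 and 13.1 CPM in the lone control-labelled libraries and 15.5, 18.5 and 13.8 CPM in the co-cultured ones. The lone knockout-labelled libraries held 2, 0 and 3 counts in all and the co-cultured ones 1, 2 and 8. Summed over libraries, the control-labelled level was 204 (95% interval 87 to 629.6) times the knockout-labelled level alone and 122 (95% interval 67.9 to 245) times in co-culture, by an exact binomial interval for counting error only. The fitted values, which rest on these few counts, were log2 fold change -7.58 ± 0.57, adjusted p = 2.73e-07 alone and log2 fold change -6.85 ± 0.52, adjusted p = 3.09e-07 co-cultured. Of its exon bases 27.0% overlap other genes, among them HOXA10-AS on the opposite strand and a HOXA10-HOXA9 readthrough gene that was listed at 0 in all 12 libraries.

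HOXA10, which acts in the uterus and in blood progenitors, had 19, 20.9 and 18.7 CPM in lone control-labelled libraries and 3.68, 3.68 and 4.44 in lone knockout-labelled ones. In co-culture it had 16.7, 17.5 and 18.9 CPM and 5.73, 5.09 and 5.63 CPM. The groups were apart in both comparisons (log2 fold change -2.31 ± 0.17, adjusted p = 2.04e-07 alone; log2 fold change -1.69 ± 0.17, adjusted p = 2.89e-06 co-cultured). HOXA11, a gene of the forelimb, kidney and uterus, had 6.01, 6.03 and 7.48 CPM in lone control-labelled libraries and 0.507, 0.348 and 0.486 in lone knockout-labelled ones. Co-cultured, it had 6.29, 5.81 and 6.64 CPM and 1.03, 1.28 and 0.485 CPM. It too was apart in both comparisons (log2 fold change -3.84 ± 0.34, adjusted p = 1.12e-06 alone; log2 fold change -2.72 ± 0.30, adjusted p = 9.49e-06 co-cultured). Of the HOXA11 exon bases, 31.1% overlap an antisense RNA gene that fell as well (edgeR log2 fold change -2.51 ± 0.61, adjusted p = 0.00346 alone). Promoter stretches of HOXA9, HOXA10 and HOXA11 are those printed above.

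HOXA13, at the 5′ end of the cluster and known for patterning the digits and genital tubercle, passed the test in the co-cultured comparison and not in the lone one, and the difference between the 2 fold changes did not pass (adjusted p = 0.0884). It had 2.1, 1.48 and 1.64 CPM in lone control-labelled libraries and 2.41, 2.79 and 2.01 in lone knockout-labelled ones, which overlapped and did not pass the test. Co-cultured, it had 1.42, 1.83 and 1.87 CPM and 0.646, 0.685 and 1.19 CPM, with all knockout-labelled libraries below the control-labelled ones (log2 fold change -1.03 ± 0.29, adjusted p = 0.0098).

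**Figure D3:**
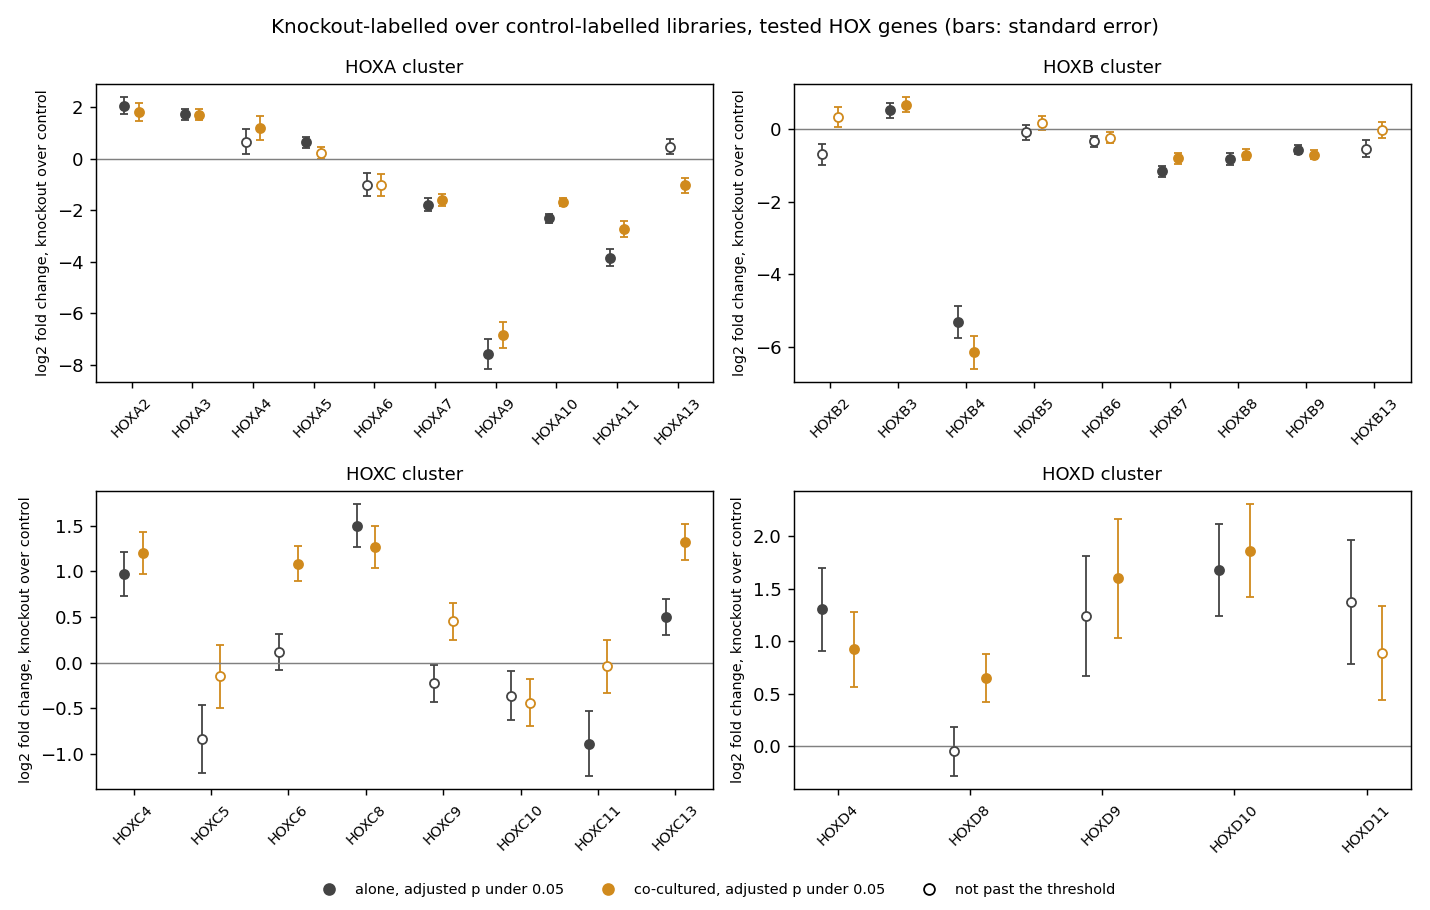
Log2 fold change of knockout-labelled over control-labelled libraries (vertical axis) for tested HOX genes in paralog order (horizontal axis), alone and co-cultured; bars are standard errors, filled points passed the test and open points did not. In HOXA the values run from above 0 at HOXA2 and HOXA3 to -7.58 at HOXA9 (alone), in HOXB the low point is HOXB4, and the vertical scales differ between panels.

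In HOXB (48528526 to 48729178 on chromosome 17, minus strand), 5 of 9 tested genes (55.6%) passed the test in each comparison, beside 56.6% of all genes tested alone and 49.4% co-cultured, 1 higher and 4 lower in the knockout-labelled libraries. HOXB4, known for expanding blood stem cells, had the largest change. It had 8.73, 12 and 15.5 CPM in lone control-labelled libraries and 11.2, 11.5 and 11 in co-cultured ones. In the knockout-labelled libraries it had 0.423, 0.0995 and 0.365 CPM alone and 0.0431, 0.238 and 0.149 co-cultured, from 10, 2 and 6 and 1, 8 and 4 counts. The groups were far apart (log2 fold change -5.32 ± 0.43, adjusted p = 5.29e-07 alone; log2 fold change -6.15 ± 0.45, adjusted p = 2.35e-07 co-cultured), and the ratio of summed levels, control over knockout, was 40.9 (95% interval 25.7 to 69.4) alone and 72.3 (95% interval 42 to 136) co-cultured. The genes on either side of HOXB4 did not share this fall. HOXB3, a hindbrain gene whose exons share bases with HOXB4, had 7.43, 5.35 and 5.19 CPM in lone control-labelled and 8.03, 8.06 and 9.85 in lone knockout-labelled libraries, and 6.7, 6.8 and 5.74 against 9.73, 9.35 and 11.8 CPM in co-culture. Its groups did not overlap in either comparison (log2 fold change 0.53 ± 0.21, adjusted p = 0.0465 alone; log2 fold change 0.68 ± 0.21, adjusted p = 0.0148 co-cultured). The lone call was lost, at adjusted p = 0.0683 to 0.176, without lone control replicate 2 or 3 or without any 1 of the lone knockout replicates, and the co-cultured call at adjusted p = 0.0686 without control replicate 3. HOXB5 was at 6.47 ± 0.471 and 6.11 ± 0.802 CPM alone (SD, n = 3) and did not pass the test in either comparison.

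HOXB7, HOXB8 and HOXB9, genes of the trunk level, fell by less than HOXB4. HOXB7 had 51, 64.9 and 66.7 CPM in lone control-labelled libraries and 23.6, 24.8 and 33.3 in lone knockout-labelled ones, against 60.9, 58.5 and 61.7 and 34.5, 36.8 and 32.7 CPM co-cultured. HOXB8, which holds myeloid progenitors undifferentiated, had 24.4, 27.8 and 26.6 and 12.6, 15.2 and 17.3 CPM alone, and 23.5, 26.6 and 27.4 and 16.5, 17.7 and 13.8 CPM co-cultured. HOXB9 had 42.2, 51.3 and 45 and 29.7, 31.3 and 32.7 CPM alone, and 49.8, 45.1 and 47 and 32, 28.1 and 27.3 CPM co-cultured. For all 3 genes every knockout-labelled library lay below every control-labelled one. The changes were log2 fold change -1.16 ± 0.16, adjusted p = 4.01e-05 for HOXB7, log2 fold change -0.81 ± 0.16, adjusted p = 0.00102 for HOXB8 and log2 fold change -0.56 ± 0.13, adjusted p = 0.00218 for HOXB9 alone. Co-cultured, they were log2 fold change -0.80 ± 0.15, adjusted p = 0.000787 for HOXB7, log2 fold change -0.69 ± 0.16, adjusted p = 0.00311 for HOXB8 and log2 fold change -0.70 ± 0.13, adjusted p = 0.000496 for HOXB9. With library trends on transcript GC content removed, the lone HOXB9 change was -0.27 and did not pass (adjusted p = 0.0515).

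The rest of HOXB did not pass the edgeR test in either comparison, while DESeq2 called HOXB6 and HOXB13 in the lone one. HOXB2 was at 1.42 ± 0.507 and 0.876 ± 0.0474 CPM alone and at 1.19 ± 0.16 and 1.52 ± 0.134 CPM co-cultured, control-labelled first. HOXB6 was at 17.4 ± 0.408 and 13.9 ± 0.639 CPM alone and at 17.4 ± 1.2 and 14.8 ± 1.68 co-cultured, and its lone groups did not overlap. HOXB13, a prostate and hindgut gene set apart from the rest of its cluster, was at 22.6 ± 6.01 and 15.7 ± 2.53 CPM alone and at 21.5 ± 1.81 and 21.4 ± 4.52 CPM co-cultured. Single libraries of HOXB13 ranged from 16.3 to 28.3 CPM within the lone control-labelled group. HOXB1, a hindbrain gene, was at 0 counts in the 6 control-labelled libraries and had 3, 0 and 0 and 0, 0 and 1 counts in the knockout-labelled ones.

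In HOXC (53938765 to 54056030 on chromosome 12, plus strand), 4 of 8 tested genes passed in each comparison (50%, beside the 56.6% and 49.4% of all genes tested). Alone, HOXC4, HOXC8 and HOXC13 were higher and HOXC11 lower in the knockout-labelled libraries; co-cultured, HOXC4, HOXC6, HOXC8 and HOXC13 were higher. HOXC8, a gene of the lower thorax, had 2.72, 1.78 and 1.64 CPM in lone control-labelled and 6.0, 5.77 and 5.59 in lone knockout-labelled libraries. Co-cultured, it had 1.72, 1.87 and 1.91 and 4.09, 4.26 and 4.96 CPM. Its groups did not overlap (log2 fold change 1.50 ± 0.23, adjusted p = 0.00014 alone; log2 fold change 1.27 ± 0.23, adjusted p = 0.000519 co-cultured). HOXC4, a neck-level gene, had 1.67, 2.28 and 2.95 and 3.81, 4.48 and 5.29 CPM alone, and 2.37, 2.41 and 2.4 and 5.21, 5.81 and 5.52 CPM co-cultured. The knockout-labelled libraries were again all above the control-labelled ones (log2 fold change 0.97 ± 0.24, adjusted p = 0.00413 alone; log2 fold change 1.20 ± 0.23, adjusted p = 0.000886 co-cultured).

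HOXC13, which acts in hair and nail, had 6.5, 8.74 and 9.17 CPM in lone control-labelled and 11.1, 10.5 and 12.9 in lone knockout-labelled libraries. Co-cultured, it had 5.93, 8.37 and 7.7 CPM and 19.5, 18 and 17.8 CPM. The groups were apart in both, with the wider gap in co-culture (log2 fold change 0.50 ± 0.20, adjusted p = 0.0454 alone; log2 fold change 1.32 ± 0.20, adjusted p = 0.000107 co-cultured), and the lone call was lost, at adjusted p = 0.054 to 0.157, without any 1 of the 6 lone libraries. The difference between the 2 fold changes did not pass the test (adjusted p = 0.164). HOXC11 had 0.929, 0.492 and 0.874 CPM in lone control-labelled and 0.465, 0.448 and 0.304 in lone knockout-labelled libraries, without overlap (log2 fold change -0.89 ± 0.35, adjusted p = 0.0457). The lone HOXC11 call was lost, at adjusted p = 0.071 to 0.128, without control replicate 1 or 3 or without any 1 of the knockout replicates. HOXC9, a thoracic gene, and HOXC10, a lumbar one, passed in neither comparison; HOXC9 was at 10.4 ± 1.68 and 8.92 ± 1.32 CPM alone, and HOXC10 at 4.18 ± 0.982 and 3.27 ± 0.665 CPM alone, control-labelled first. HOXC5, with 59.9% of its exon bases overlapping other genes, stayed under 1 CPM in every group mean, and HOXC12 had 2 counts over all 12 libraries.

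HOXD (176092891 to 176190907 on chromosome 2, plus strand) held 1 expressed gene. That gene, HOXD8, had 5.88, 6.83 and 7.15 and 6.68, 5.67 and 6.87 CPM alone, control-labelled first, which overlapped and did not pass the test. Co-cultured, it had 3.74, 5.93 and 6.03 CPM in control-labelled and 9.82, 7.3 and 7.6 CPM in knockout-labelled libraries, without overlap (log2 fold change 0.65 ± 0.23, adjusted p = 0.0317). That call was lost without replicate 1 of either co-cultured group (adjusted p = 0.121 and 0.154). The 8 other genes of HOXD had group means between 0.0203 and 0.901 CPM. Among them HOXD4 and HOXD10 passed the test in both comparisons and HOXD9 in the co-cultured one, all higher in the knockout-labelled libraries; they are named after their values were seen. The co-cultured HOXD4 call was lost without any 1 of the 6 co-cultured libraries (adjusted p = 0.0505 to 0.167) and by DESeq2 (0.0974). The HOXD9 call was lost without co-cultured control replicate 1 or 3 or knockout replicate 1 (adjusted p = 0.0914 to 0.156). At such levels a library gives few counts per gene, and HOXD10 had 7, 3 and 4 counts in the lone control-labelled and 20, 19 and 15 in the lone knockout-labelled libraries. Exon bases that overlap other genes were 80.5% for HOXD4, 74.1% for HOXD3 and 58.1% for HOXD1. They were 21.4% for HOXD11, 16.8% for HOXD10 and 0.0% for HOXD8, HOXD9, HOXD12 and HOXD13. Since the assignment of reads on shared bases is not given, low expression and uncounted reads cannot be told apart for HOXD1, HOXD3 and HOXD4.

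In the knockout-labelled cells, HOX genes passed the test for co-culture at about the share of all genes. Between co-cultured and lone knockout-labelled libraries, 4 of 33 tested HOX genes passed the test, which is 12.1% beside 11.4% of all genes tested. HOXC6, HOXC11 and HOXC13 were higher in co-culture (5.97% of all genes tested were) and HOXA13 was lower (5.4%). Without co-cultured knockout replicate 3, 6 genes passed, these 4 among them and HOXA11 and HOXB13 besides. Over all genes tested, the fold changes of this comparison rose with transcript GC content (Spearman correlation 0.435). That content is 43.8% for HOXA13, 52.4% for HOXC6, 52.9% for HOXC11 and 57.7% for HOXC13. With library trends on GC content removed, all 4 genes still passed. With a replicate block besides, HOXC13 was lost (edgeR adjusted p = 0.0594). In HOXB 0 of 9 tested genes passed in edgeR (2 at an unadjusted p under 0.05, 0 by DESeq2), and in HOXD 0 of 5 (0 at an unadjusted p under 0.05, 0 by DESeq2). Groups did not overlap for 11 of the 33 genes, beside 31.5% of all genes tested. In bulk RNA, fewer cells with a transcript and less RNA per cell cannot be told apart.

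HOXA13 fell from 2.41, 2.79 and 2.01 CPM in the lone knockout-labelled libraries to 0.646, 0.685 and 1.19 CPM in the co-cultured ones, without overlap (log2 fold change -1.51 ± 0.29, adjusted p = 0.00629). Its call in this comparison held in each alternative setting run. HOXC6, a thoracic gene, rose from 5.54, 4.38 and 4.8 CPM to 9.0, 9.23 and 8.35 CPM, also without overlap (log2 fold change 0.85 ± 0.19, adjusted p = 0.0162). Its exons share 15.7% of their bases with HOXC4, HOXC9 and other genes of the cluster. HOXC13 rose from 11.1, 10.5 and 12.9 to 19.5, 18 and 17.8 CPM (log2 fold change 0.68 ± 0.19, adjusted p = 0.0423), and HOXC11 from 0.465, 0.448 and 0.304 to 0.861, 1.22 and 0.895 CPM (log2 fold change 1.27 ± 0.33, adjusted p = 0.0286), each without overlap. Co-cultured, the knockout-labelled values of HOXC11 overlapped the control-labelled ones, 1.13, 0.917 and 1.06 CPM. Those 3 HOXC calls depended on single libraries. HOXC6 was lost without lone knockout replicate 2 or 3 or co-cultured replicate 1 or 2 (adjusted p = 0.0515 to 0.0832). HOXC11 (0.0679 to 0.124) and HOXC13 (0.0661 to 0.164) were lost without any 1 of the lone knockout replicates or co-cultured replicate 1 or 2.

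**Figure D4:**
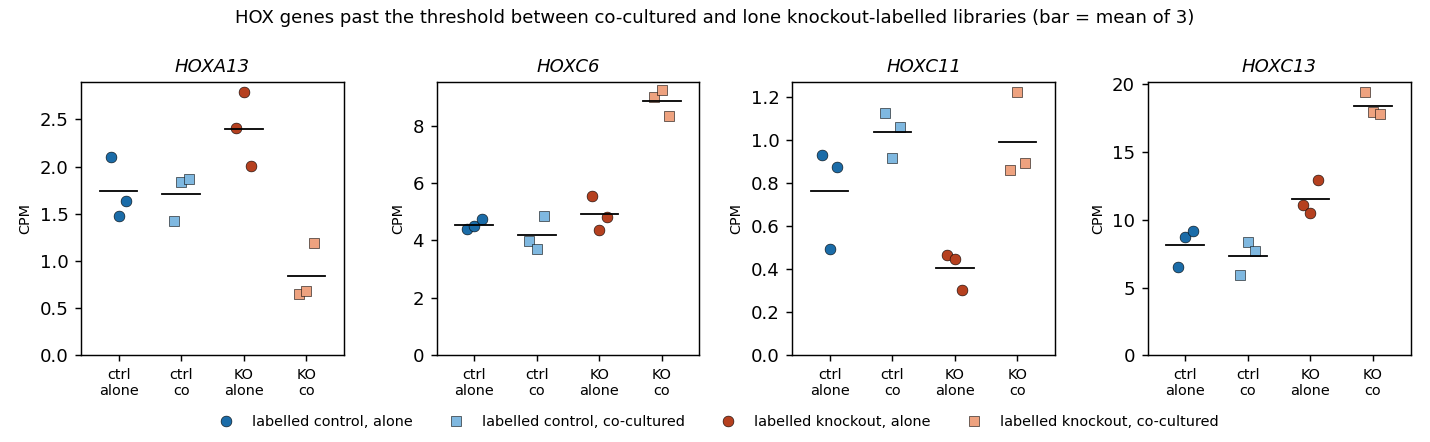
TMM-scaled CPM (vertical axes, from 0) of the 4 HOX genes that passed the test between co-cultured and lone knockout-labelled libraries, in the 4 groups (horizontal axis); points are libraries and bars are means of 3. HOXC6 and HOXC13 are highest in the co-cultured knockout-labelled group, and HOXA13 is lowest there.

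In the control-labelled cells, 0 of 33 tested HOX genes passed between co-cultured and lone libraries in edgeR, 0 reached an unadjusted p under 0.05 and 0 passed by DESeq2. Over all genes tested, the share called was 0% and 3.22% reached an unadjusted p under 0.05. No HOX gene had groups without overlap there (0 of 33, beside 7.39% of all genes tested). Whether co-culture acted differently on the 2 kinds of cells was tested by the interaction, the co-culture difference in knockout-labelled cells minus that in control-labelled cells. In edgeR 0 of 33 HOX genes passed it, beside 1.8% of all genes tested, with 7 at an unadjusted p under 0.05 and 4 called by DESeq2. For the 4 genes that passed in the knockout-labelled cells, the interaction on the log2 scale was -1.50 ± 0.40 for HOXA13 (adjusted p = 0.0884), 0.97 ± 0.28 for HOXC6 (adjusted p = 0.105), 0.85 ± 0.45 for HOXC11 (adjusted p = 0.317) and 0.82 ± 0.28 for HOXC13 (adjusted p = 0.164). Without co-cultured knockout replicate 3, 4 genes passed the interaction in edgeR: HOXA11, HOXA13, HOXC6 and HOXC9. The interaction over all genes tested rose with transcript GC content (Spearman correlation 0.533). Co-culture fold changes in control-labelled cells fell with it (-0.371). With library trends on GC content removed, 1 HOX gene passed the interaction (HOXC6).

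Noncoding RNAs of the clusters changed in part with their neighbours. Of 13 tested, 4 were higher and 4 lower in the lone knockout-labelled libraries (61.5%, beside 56.6% of all genes tested, median log2 fold change -0.25 beside 0.09). HOXA10-AS, which overlaps HOXA9 and HOXA10, had 35, 59 and 69 counts in lone control-labelled and 4, 1 and 3 in lone knockout-labelled libraries (log2 fold change -4.53 ± 0.55, adjusted p = 1.76e-05). HOXA-AS2, antisense in the HOXA3 and HOXA4 region, had 3.1, 3.08 and 2.78 and 8.12, 7.76 and 9.12 CPM (log2 fold change 1.48 ± 0.25, adjusted p = 0.000235). Each thus moved in the direction of the coding genes it overlaps, HOXA9 and HOXA3, and since the strand setting of the counting is not given in the sources used here, their reads cannot be told apart. HAGLR, antisense at HOXD1, had 0.681, 0.308 and 0.328 CPM in lone control-labelled and 3.17, 2.74 and 2.37 in lone knockout-labelled libraries (log2 fold change 2.65 ± 0.35, adjusted p = 3.98e-05). HOXB-AS3 had 2.1, 1.54 and 2.13 and 6.77, 5.62 and 4.25 CPM (log2 fold change 1.53 ± 0.29, adjusted p = 0.000661). HOTAIRM1 was at 2.42 ± 0.611 and 3.66 ± 0.43 CPM and did not pass the test, and nor did HOXB-AS4 (2.6 ± 0.639 and 2.18 ± 0.127 CPM).

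The TALE cofactors, with which HOX proteins bind DNA, changed in both directions. Of 9 tested, 4 were higher and 4 lower in the lone knockout-labelled libraries (88.9%, beside 56.6% of all genes tested; 5 called without lone knockout replicate 2), and in co-culture 2 were higher and 3 lower (55.6%, beside 49.4%). PBX2 had 57.5, 62.8 and 81.6 CPM in lone control-labelled and 25.5, 27.7 and 25.9 in lone knockout-labelled libraries (log2 fold change -1.35 ± 0.14, adjusted p = 4.7e-06), and PBX4 had 4.64, 4.55 and 6.06 and 1.61, 0.945 and 1.46 CPM (log2 fold change -1.92 ± 0.28, adjusted p = 9.12e-05). In the other direction, MEIS1, a known partner of HOXA9 in leukaemia, had 0.681, 0.185 and 0.273 and 2.79, 1.04 and 2.13 CPM (log2 fold change 2.39 ± 0.50, adjusted p = 0.00124). These 3 genes did not overlap between the lone groups. MEIS2 (mean 10.9 to 5.23 CPM) and MEIS3 (112 to 57.9 CPM) fell, whereas PBX3 (5.18 to 9.2 CPM) and PBXIP1 (75.9 to 102 CPM), which holds PBX proteins off DNA, rose. PKNOX1 was at 9.32 ± 2.75 and 12.3 ± 1.11 CPM and did not pass the test. The lone calls of PBX3 and PBXIP1 rested on single libraries: PBX3 was lost without control replicate 2 or 3 or knockout replicate 1 or 2 (adjusted p = 0.0581 to 0.112), PBXIP1 without control replicate 1 or 2 or any knockout library (adjusted p = 0.0513 to 0.12), and MEIS2 without knockout replicate 2 (adjusted p = 0.0505).

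Homeobox genes outside the clusters that are tied to them by descent or position included CDX2, which drives posterior HOX genes in the embryo and marks intestine. CDX2 had 23.4, 28.4 and 30.4 CPM in lone control-labelled and 21.5, 21.2 and 30.6 in co-cultured control-labelled libraries. In the knockout-labelled libraries it had 0.846, 0.945 and 0.486 CPM alone and 1.16, 1.13 and 0.671 co-cultured. The groups were far apart (log2 fold change -5.14 ± 0.30, adjusted p = 2.79e-08 alone; log2 fold change -4.62 ± 0.29, adjusted p = 5.22e-08 co-cultured). PDX1, a ParaHox gene of pancreas and duodenum, had 3.96, 4.12 and 5.57 and 0.296, 0.199 and 0.425 CPM alone (log2 fold change -3.89 ± 0.32, adjusted p = 5.25e-07), and EN1, a midbrain and limb gene, had 0.371, 0.492 and 0.437 and 2.92, 2.44 and 3.59 CPM (log2 fold change 2.76 ± 0.32, adjusted p = 9.8e-06). Of 7 genes tested in this list, 1 was higher and 3 were lower in the lone knockout-labelled libraries (57.1%, beside 56.6% of all genes tested).

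Of the retinoic acid pathway, which acts on 3′ HOX genes, 18 genes were tested, and 5 were higher and 9 lower in the lone knockout-labelled libraries (77.8%, beside 56.6%). In co-culture 7 were higher and 6 lower (72.2%, beside 49.4%). CRABP2, which carries retinoic acid to its nuclear receptor, had 198, 296 and 299.6 CPM in lone control-labelled and 1.35, 1.99 and 2.31 in lone knockout-labelled libraries (log2 fold change -7.15 ± 0.25, adjusted p = 5.85e-10). NR2F1, an orphan nuclear receptor induced by retinoic acid, had 68.3, 68.4 and 64.9 and 4.52, 4.63 and 4.92 CPM (log2 fold change -3.84 ± 0.16, adjusted p = 1.46e-09). Both were lower in each knockout-labelled library than in any control-labelled one. Whether these genes had a part in the HOX differences was not tested.

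**Figure D5:**
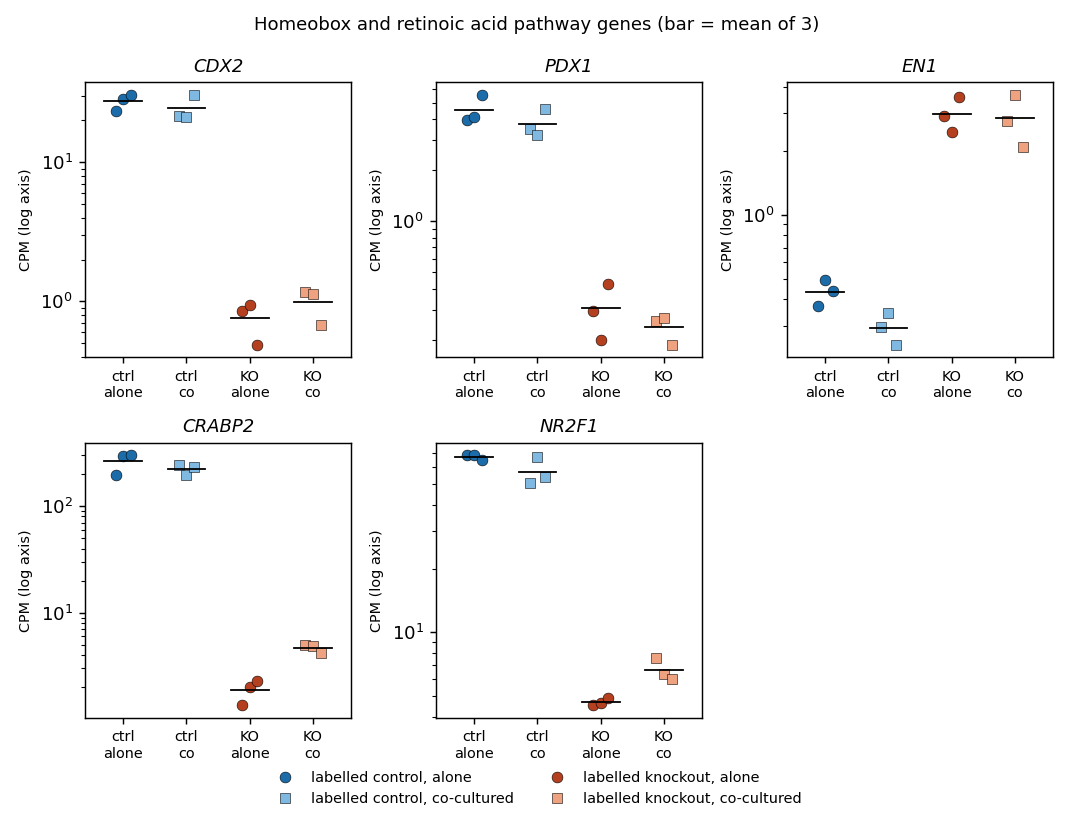
TMM-scaled CPM (vertical axes, logarithmic) of CDX2, PDX1, EN1, CRABP2 and NR2F1 in the 4 groups (horizontal axis); points are libraries and bars are means of 3. Each gene separates control-labelled from knockout-labelled libraries with no overlap, and EN1 alone is higher in the knockout-labelled ones.

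Chromatin regulators of the clusters changed as well. Of 33 Polycomb genes, all tested, 6 were higher and 15 lower in the lone knockout-labelled libraries (63.6%, beside 56.6%), and 3 higher and 16 lower in co-culture (57.6%, beside 49.4%). CBX7, a chromobox subunit that reads the Polycomb mark, had 29, 34.8 and 40.8 CPM in lone control-labelled and 6.47, 7.11 and 9.18 in lone knockout-labelled libraries (log2 fold change -2.20 ± 0.21, adjusted p = 2.24e-06). CBX2, of the same family, had 115, 138 and 156 and 38.6, 44.7 and 50.8 CPM (log2 fold change -1.61 ± 0.17, adjusted p = 5.54e-06), and EPOP, a PRC2 accessory protein, had 126, 157 and 184 and 44.2, 50.1 and 57.4 CPM (log2 fold change -1.62 ± 0.20, adjusted p = 1.71e-05). Their lone groups did not overlap. Of 24 trithorax and MLL genes, 8 were higher and 6 lower alone (58.3%, beside 56.6%), and 8 higher and 10 lower in co-culture (75%, beside 49.4%). DOT1L, the methyltransferase recruited by MLL fusions, had 63.6, 70.2 and 73.9 and 29, 29.6 and 32.9 CPM (log2 fold change -1.18 ± 0.13, adjusted p = 5.57e-06), and CXXC1, a subunit of the SET1 complexes, had 140.2, 175 and 228 and 37.7, 49.2 and 59 CPM (log2 fold change -1.90 ± 0.23, adjusted p = 1.84e-05). MLLT3, a partner of DOT1L, rose from 4.71, 2.28 and 2.24 CPM to 19.9, 17.3 and 16.7 CPM (log2 fold change 2.55 ± 0.38, adjusted p = 0.000109). Their part in the HOX differences was not tested.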

How the data were processed

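RNA was measured by RNA-seq in 12 libraries (4 groups of 3), grouped by the labels of the samples. The authors deposited 1 table of raw read counts per Ensembl gene; per the submitters' processing notes, STAR 2.7.9a, featureCounts, FastQC, R 4.2.1, DESeq2 1.36.0 and the build GRCh38 (hg38) were used, with the annotation, the strand setting and the order of steps not given in the sources used here. Per the labels' protocols, a miRNeasy kit gave the total RNA and NEBNext Ultra the libraries. No label says that replicates were separate cultures, so p-values measure the spread between these libraries, which may be technical. Replicate pairs differed by a chi-square of 8.77 to 130 per gene, so none was a repeated library.

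Counts were used as deposited and analysed here in R 4.3.3 with edgeR 4.0.16: filterByExpr on the 4 groups (16768 genes kept), TMM scaling, and a robust quasi-likelihood F-test in 1 model of 4 group means over all 12 libraries, adjusted by Benjamini-Hochberg within each of 5 comparisons, at a threshold of 0.05. The biological coefficient of variation was 22.1%. Values after ± are SDs over 3 libraries for CPM and standard errors for log2 fold changes. The test was also run on counts simulated from gene means over all 12 libraries. Few genes were changed there, the dispersion was the same for all genes, and no library trend on GC content was put in. In that setting 95.6% of genes changed by 2 log2 units and 50.9% of those changed by 1 were recovered, with 8 false calls among 16768 genes. The lone comparison itself called 56.6% of genes, so these rates need not hold for it. Intervals for summed counts cover counting error only. Symbols were found for 42045 of 61541 identifiers, and positions, exon lengths and GC content came from GENCODE 29 (GRCh38, 1-based), which held 58366 of them. A HOX gene counted as expressed at a group mean of 1 CPM. The gene lists were HOX cluster noncoding RNAs (25 of 26 found), TALE cofactors (10), Polycomb (33), trithorax and MLL (24), retinoic acid pathway (22) and ParaHox and cluster-border homeobox genes (13), beside cell type markers. The members, lists and tests were chosen with earlier results of these data known. The text names every HOX gene above 1 CPM in some group, at most the 6 highest noncoding RNAs, all TALE cofactors above 1 CPM, and the 3 genes of each other list with the smallest p in the lone comparison, plus the 2 nearest tested coding genes on each side of a cluster; some genes under these rules are not reported here and are left out of the plots of single genes. Alternatives were library size scaling, DESeq2 1.42.0, no filter, only the groups compared, a replicate block, GC offsets, a 2-fold minimum and leaving out each library in turn.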

Additional observations from a re-analysis of the deposited data

How the results depend on the processing

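Of the fold changes past the threshold (all HOX genes, and list and neighbouring genes chosen by the naming rule), 1300 of 1442 values under alternatives kept their direction and their side of the threshold, 142 lost significance and 0 reversed. Counts and totals stayed within 1.5 times, or 1 SD, of the main value in 317 of 339. Scaling by library size alone shifted the middle of all genes by 0.16 (log2) in the lone comparison of knockout with control, and turned no HOX fold change that had passed the test. Requiring a 2-fold change left 12 of the 19 HOX genes called alone, 2 of the 4 called between co-cultured and lone knockout, 5 TALE, 11 Polycomb and 8 trithorax genes alone, and 8 Polycomb and 4 trithorax genes co-cultured. Fitting only the groups compared left 1 HOX gene between co-cultured and lone knockout, and 12 Polycomb genes in the co-cultured comparison. Leaving out 1 library at a time gave 1 to 6 HOX genes between co-cultured and lone knockout, 0 to 4 for the interaction, 5 to 7 TALE genes alone, and 5 to 8 noncoding RNAs co-cultured, the lowest without co-cultured control replicate 1. For the interaction, DESeq2 called 4 HOX genes and GC offsets 1 (HOXC6). With library size scaling HOXA summed to 53.4 CPM in co-cultured knockout and HOXD to 10.6 CPM in lone knockout. A replicate block gave 2 HOX genes between co-cultured and lone knockout (16 alone, 19 co-cultured, 0 for the interaction). Deviations of same-numbered libraries correlated from -0.60 to 0.49 and exceeded 0.1 in 7 of 18 pairs. Without co-cultured knockout, replicate 1 pairs were at 0.189 to 0.491 and replicate 3 pairs at 0.308 to 0.412. Replicate 2 pairs there were at -0.0735 to -0.0242. Pairs with co-cultured knockout ran from -0.603 to 0.138. Replicate numbers may thus pair libraries of the other groups in part. The block lost HOXB3, HOXC11 and HOXC13 alone, and HOXA4, HOXD4 and HOXD8 co-cultured. At 1 CPM a library holds 16.2 to 33.6 counts, so that HOX genes well under 1 CPM are limited by counting error. The cause of each change was not tested.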

Other observations

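The nearest tested protein-coding genes outside each cluster, 2 on each side, were called in 6 of 16 cases alone (4 higher, 2 lower in knockout-labelled libraries, beside 56.6% of all genes tested called) and in 7 of 16 co-cultured (4 higher, 3 lower, beside 49.4%). Beside HOXA, SKAP2, an adaptor protein gene on the HOXA2 side, had 12.4, 9.29 and 5.46 CPM in lone control-labelled and 30.4, 23.1 and 22.9 in lone knockout-labelled libraries (log2 fold change 1.49 ± 0.39, adjusted p = 0.0056). HIBADH, an enzyme gene of valine breakdown on the HOXA13 side, had 18.8, 18.8 and 15 and 44.7, 38.8 and 35.1 CPM (log2 fold change 1.18 ± 0.18, adjusted p = 0.000132). Co-cultured, HIBADH was again higher (log2 fold change 0.96 ± 0.18, adjusted p = 0.000673) and SKAP2 did not pass the test (log2 fold change 0.27 ± 0.38, adjusted p = 0.578). Beside HOXB, TTLL6 had 1.05, 0.985 and 0.819 and 2.33, 1.74 and 2.07 CPM (log2 fold change 1.10 ± 0.34, adjusted p = 0.0145; lost without lone control replicate 3 or lone knockout replicate 1, with adjusted p = 0.0531 to 0.0629), and SNX11 fell (log2 fold change -0.62 ± 0.17, adjusted p = 0.00756). Beside HOXC, SMUG1, a uracil-DNA glycosylase gene, had 40.9, 48.1 and 58.8 and 18.7, 26.2 and 26.9 CPM (log2 fold change -1.04 ± 0.18, adjusted p = 0.000348). Beside HOXD, MTX2 was at 23.4 ± 0.62 and 24.4 ± 4.95 CPM and did not pass the test alone. In co-cultured knockout replicate 3, SKAP2 stood at 22.4 CPM beside 9.61 and 7.39 in the other two, and CBX5, beside HOXC, at 87.9 beside 37 and 25.5.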
